A study of Mus musculus with 12 samples.

Results

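The genes described here encode the semaphorins, their plexin and neuropilin receptors, and the ephrins with their Eph receptors. They were taken by symbol pattern from the deposited gene table, which gave 53 of its 27179 genes: 20 semaphorins, 9 plexins, 2 neuropilins, 8 ephrins and 14 Eph receptors. RNA was sequenced from basal and luminal epithelial cells of the mammary gland of female mice, with 3 biological replicates in each of 4 groups. Control mice carried the Foxp1(fl/fl) alleles, in which loxP sites flank part of Foxp1, a forkhead transcription factor. Knockout mice carried MMTV-cre/Foxp1(fl/fl), in which the MMTV promoter drives Cre recombinase, so every group shares the floxed alleles and the controls carry no Cre per the labels. Ages are not given in the labels, and no batch is named there.

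Semaphorins are secreted or membrane-bound ligands that signal through plexins, and most secreted class 3 semaphorins need a neuropilin as co-receptor. Eph receptors are tyrosine kinases bound by ephrins on a neighbouring cell, with ephrin-A ligands held by a GPI anchor and ephrin-B ligands spanning the membrane, and both partners can signal. These systems are known from axon guidance and vessel growth, and in epithelia, including the mammary gland, they act on cell adhesion, sorting and branching.

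Total counts were between 9769361 and 11133908 in 11 libraries and 15449513 in luminal knockout-labelled replicate 3, and the 53 genes took between 0.233% and 0.396% of them. All 6 basal markers were lower and 7 of 8 luminal markers were higher in luminal than in basal controls, so the libraries carried the markers of their labels. Foxp1, the targeted gene, had 161, 149.8 and 155 CPM (counts scaled to library size) in the luminal knockout-labelled libraries against 82.3, 61.96 and 78.2 CPM in the luminal controls. This was a log2 fold of 1.07 (SE 0.19, edgeR adjusted p = 0.0161) against the direction of the label, and the basal groups overlapped. A gene-level count also takes reads from exons outside the deleted part, so it does not check the deletion, and the groups are called knockout-labelled throughout. Replicate 3 of both control groups stood apart from its group in genes with raised values. Of all tested genes, 6.86% in basal control 3 and 6.06% in luminal control 3 were at least 2-fold above both other libraries. This compares with at most 2.29% in the other control libraries. At least 2-fold below both others were 8.23% in basal control 3, 3.33% in luminal control 3 and 4.03% in luminal control 2.

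Of the 53 genes, 49 passed the expression filter and were tested. The genes left out were Epha6, with a count of 0 in all 12 libraries (a limit of 3 counts, or 0.0231 CPM over all libraries), Epha10 with 2 counts, Epha8 with 56 and Plxnc1 with 71 over the 12 libraries.

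The promoters of Plxnd1, Sema5a, Ephb4 and Efna5 are shown because these are the 4 genes that were called in a comparison of knockout-labelled with control libraries or in the difference of those comparisons. Each runs from 250 bases before to 50 bases after the start in the RefSeq table of GRCm38.p6, read 5' to 3' on the strand of the gene. Capitals mark GGGCG, the core of the GC box, or its reverse complement CGCCC. Plxnd1 lies at chr6:115994956-115995255 on the minus strand, Sema5a at chr15:32244563-32244862 on the plus strand, Ephb4 at chr5:137349859-137350158 on the plus strand and Efna5 at chr17:62881268-62881567 on the minus strand. In GRCm38 the genes run over chr6:115954811-115995339 for Plxnd1 (Entrez 67784), chr15:32244813-32696341 for Sema5a (20356), chr5:137350109-137374522 for Ephb4 (13846) and chr17:62602957-62881317 for Efna5 (13640). The start in the promoter table lies inside these bounds for Plxnd1, so its whole window falls within the gene.
Plxnd1: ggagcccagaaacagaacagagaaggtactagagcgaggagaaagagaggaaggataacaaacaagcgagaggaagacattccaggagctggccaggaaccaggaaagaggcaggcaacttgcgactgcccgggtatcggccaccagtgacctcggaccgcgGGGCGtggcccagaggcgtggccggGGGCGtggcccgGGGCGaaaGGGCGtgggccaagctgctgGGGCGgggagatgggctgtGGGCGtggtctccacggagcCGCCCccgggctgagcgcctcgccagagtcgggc
Sema5a: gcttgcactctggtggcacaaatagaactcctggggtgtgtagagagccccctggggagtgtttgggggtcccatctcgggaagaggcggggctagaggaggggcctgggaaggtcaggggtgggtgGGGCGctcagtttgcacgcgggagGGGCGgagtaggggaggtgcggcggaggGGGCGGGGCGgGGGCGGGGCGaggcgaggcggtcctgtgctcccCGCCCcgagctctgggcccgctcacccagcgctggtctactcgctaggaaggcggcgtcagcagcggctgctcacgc
Ephb4: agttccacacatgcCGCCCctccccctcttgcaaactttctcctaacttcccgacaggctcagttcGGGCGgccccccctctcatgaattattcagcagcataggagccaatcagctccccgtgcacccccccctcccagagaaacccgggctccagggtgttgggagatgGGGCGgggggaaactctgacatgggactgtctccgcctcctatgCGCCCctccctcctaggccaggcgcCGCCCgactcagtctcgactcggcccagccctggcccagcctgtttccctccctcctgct
Efna5: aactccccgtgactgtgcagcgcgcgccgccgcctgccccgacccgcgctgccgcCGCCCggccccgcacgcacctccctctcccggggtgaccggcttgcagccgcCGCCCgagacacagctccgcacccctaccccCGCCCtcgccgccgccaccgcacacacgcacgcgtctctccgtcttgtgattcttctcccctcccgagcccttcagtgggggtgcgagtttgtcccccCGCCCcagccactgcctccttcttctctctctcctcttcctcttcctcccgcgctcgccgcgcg

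The GC box core was present 7 times in the Plxnd1 window, 7 in Sema5a, 5 in Ephb4 and 4 in Efna5. Across the table it was in 47.0% of 32851 promoters and in 51 of 61 promoters (83.6%) of the 47 guidance genes that matched by Entrez number. The median GC content was 64.0% in these 61 and 52.7% in all promoters, and the 4 printed windows were at 67.0%, 71.3%, 64.7% and 73.3%. The forkhead core TAAACA, searched on both strands, was in 13.4% of all promoters and in 2 of the 61, those of Epha6 and Sema4d. None of the 4 printed windows holds these letters, which says nothing of binding elsewhere.

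Levels were first ordered per length of transcript, as RPKM from the deposited gene lengths. The Eph receptor Epha2 was the highest in every group, at 223 ± 42.8 RPKM in basal controls (SD, n = 3) and 149 ± 47.0 in luminal controls. In basal controls it was followed by Efnb1 at 74.7 ± 18.1, Efnb2 at 56.3 ± 21.8, Efna1 at 47.9 ± 12.6 and Plxnb2 at 37.7 ± 4.18 RPKM. Among these 4 genes the range of 1 SD around each mean overlapped that of the next gene in the order, whereas Epha2 stood clear of all of them. In luminal controls the order after Epha2 was Efna1 at 62.9 ± 14.0, Plxnb2 at 45.5 ± 5.90, Ephb3 at 41.1 ± 21.6 and Sema4c at 35.6 ± 5.66 RPKM, again with overlapping ranges between neighbours. Efna1, the ligand with which Epha2 is most often paired, was therefore among the 4 highest members of both cell types.

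**Figure D1:**
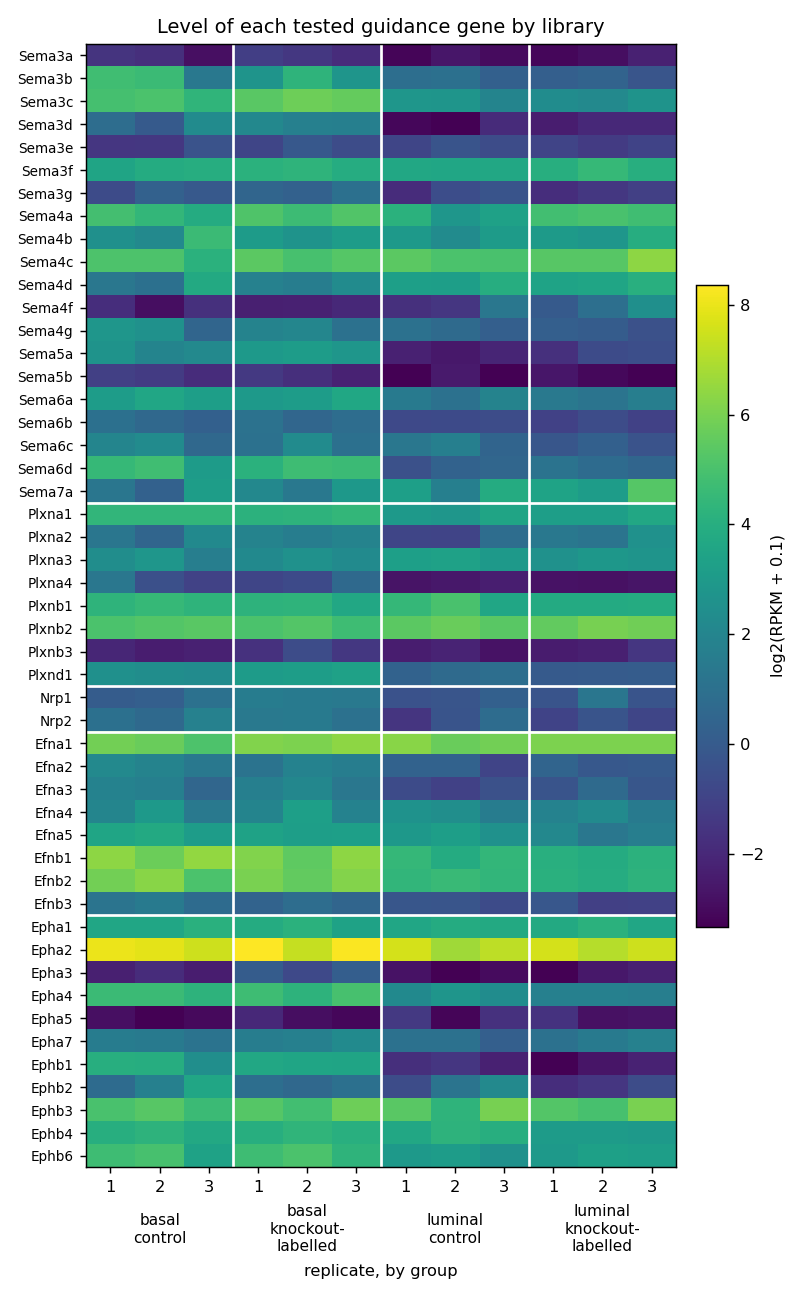
The level of each of the 49 tested genes (vertical axis) in each of the 12 libraries (horizontal axis), as log2(RPKM + 0.1), with white lines between groups and between families. Epha2 is the brightest gene in all libraries, and Ephb1, Sema3d, Sema5a and Plxna4 are dark in the luminal libraries and lighter in the basal ones.

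The first comparison set luminal against basal cells of the control gland. Of the 49 tested genes, 20 were lower and 1 was higher in luminal cells, or 42.9% called at an adjusted p under 0.05, against 33.2% of all 14903 tested genes (16.8% lower and 16.3% higher). The median log2 fold of the 49 was -1.26, against 0.04 over all tested genes, and in 23 genes the libraries of the cell types did not overlap (21 lower and 2 higher), against 44.1% of all tested genes (21.2% lower and 22.9% higher). The lower genes were 9 of 20 semaphorins, 3 of 8 tested plexins, 5 of 8 ephrins and 3 of 11 tested Eph receptors. These are bulk RNA measurements, in which fewer cells of a type and less RNA per cell cannot be told apart. Markers of stromal cells differed in the same direction: 8 fibroblast markers summed to between 576 and 981 CPM in basal and between 72.9 and 302 CPM in luminal controls (2 called lower and 1 higher), and 6 pericyte markers to between 36.2 and 53.0 and between 4.02 and 10.5 CPM (4 called lower), with none at 0 throughout a group. Their part in the values of the guidance genes was not tested.

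Among the semaphorins, Sema5a, a transmembrane ligand with thrombospondin repeats, had 68.7, 41.2 and 48.1 CPM in basal controls and 1.22, 0.74 and 1.41 CPM in luminal controls. The groups were far apart, with a log2 fold of -5.54 (SE 0.42, edgeR adjusted p = 5.79e-06). The secreted ligand Sema3d had 11.2, 5.72 and 31.5 CPM in basal and 0.0936, 0 and 1.11 CPM in luminal controls. Its 3 luminal libraries held 1, 0 and 11 counts, so its log2 fold of -5.34 (SE 0.90, edgeR adjusted p = 0.000919) rests on few reads. The fold was -8.17 without luminal control 3, -4.74 without luminal control 2 and -4.40 without basal control 3. Sema6d, a transmembrane ligand of plexin-A1, had 147, 181 and 54.6 CPM in basal and 4.21, 7.77 and 8.95 CPM in luminal controls, a log2 fold of -4.19 (SE 0.45, edgeR adjusted p = 4.3e-05).

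Sema3b and Sema3c, both secreted, were also lower in luminal cells. Sema3b had 94.7, 84.8 and 8.59 CPM in basal controls, where replicate 3 was about as low as the luminal values of 5.99, 6.57 and 3.82 CPM (log2 fold -3.52, SE 0.75, edgeR adjusted p = 0.00398). Sema3c, known from vascular and cardiac outflow development, had 149, 162 and 99.1 CPM against 34.1, 33.8 and 18.9 CPM (log2 fold -2.24, SE 0.27, edgeR adjusted p = 9.09e-05). Sema5b, Sema6a, Sema6b and Sema4g completed the 9 lower semaphorins. Only for Sema4g among the 20 lower genes did the libraries of the 2 cell types overlap.

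A few semaphorins stood higher in luminal controls without passing the test. Sema4d, the ligand of plexin-B1, had 41.4, 40.1 and 67.0 CPM in luminal and 10.5, 8.4 and 59.3 CPM in basal controls, a log2 fold of 0.92 (edgeR adjusted p = 0.263). Basal control 3 alone overlapped the luminal values. Without it the fold was 2.39 (edgeR adjusted p = 0.000286). With replicate number as a block, which treats same-numbered libraries as pairs, it was 1.28 (edgeR adjusted p = 0.0353). Sema7a, a GPI-anchored ligand of plexin-C1 and of integrin beta-1, had 31.3, 10.4 and 47.5 CPM in luminal and 7.57, 3.75 and 29.1 CPM in basal controls (log2 fold 1.14, edgeR adjusted p = 0.311). Its blocked fold was 1.37 (edgeR adjusted p = 0.00628), and without basal control 3 it was 2.40 (edgeR adjusted p = 0.0490).

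Among the receptors of semaphorins, Plxnd1, the receptor of Sema3e, had 39.2, 35.5 and 33.2 CPM in basal and 8.05, 10.8 and 12.2 CPM in luminal controls. Its log2 fold was -1.80 (SE 0.18, edgeR adjusted p = 2.55e-05), with a wide gap between the groups. Plxna4 had 29.8, 7.95 and 4.90 CPM in basal and 0.655, 0.832 and 1.21 CPM in luminal controls, where the log2 fold was -3.97, SE 0.74, edgeR adjusted p = 0.00176, and the fold was -2.86 without basal control 1, the library with the high value. Plxna1 was the third lower plexin, at 183, 188 and 188 CPM in basal and 69.1, 62.7 and 101 CPM in luminal controls. Plxna3 was the only member called higher in luminal controls by edgeR's unblocked test on all 12 libraries. DESeq2 called 2 members higher and 24 lower, against 36.7% of all 14903 tested genes (2557 higher and 2916 lower). Without basal control 3 edgeR called 4 members higher and 23 lower, against 34.1% of all 15270 genes tested there (2487 higher and 2724 lower). Plxna3 had 65.7, 71.2 and 54.8 CPM in luminal against 36.1, 47.8 and 21.8 CPM in basal controls. Its log2 fold was 0.86 (SE 0.25, edgeR adjusted p = 0.0205), and the call was lost without basal control 1 (0.0600), luminal control 1 (0.0582) or luminal control 2 (0.0637). With the block, 5 members were called higher (Plxna3, Sema4d, Sema7a, Sema4f and Epha5) and 23 lower, against 43.8% of all tested genes.

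The B-class plexins overlapped between the cell types. Plxnb1 had 167, 194 and 168 CPM in basal and 191, 280 and 102 CPM in luminal controls, and Plxnb2 had 220, 248 and 274 CPM in basal and 280, 342 and 272 CPM in luminal controls. Neither was called. Of the co-receptors, Nrp1 had 5.70, 6.25 and 11.5 CPM in basal and 3.93, 4.44 and 6.43 CPM in luminal controls. Nrp2 had 15.6, 12.3 and 27.8 CPM in basal and 2.06, 5.92 and 13.5 CPM in luminal controls, with replicate 3 the highest in both. Its log2 fold was -1.38 (edgeR adjusted p = 0.0683), -1.48 with the replicate block (edgeR adjusted p = 0.0395) and -2.27 without luminal control 3 (edgeR adjusted p = 0.00674).

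All 3 ephrin-B genes were lower in luminal controls, and no library of one cell type reached into the other. Efnb1 had 271, 176 and 284 CPM in basal and 72.4, 47.7 and 69.4 CPM in luminal controls, where the log2 fold was -1.95, SE 0.28, edgeR adjusted p = 0.000287. Efnb2, the main ligand of Ephb4, had 253, 332 and 144 CPM in basal and 87.8, 105 and 88.2 CPM in luminal controls, where the log2 fold was -1.38, SE 0.27, edgeR adjusted p = 0.00251. Efnb3 was lower at 2.53, 2.40 and 1.71 CPM against 6.95, 8.58 and 5.17 CPM in basal controls. Of the ephrin-A genes, Efna2 and Efna3 were called. Efna3 had 4.25, 3.93 and 1.66 CPM in basal and 0.655, 0.462 and 0.804 CPM in luminal controls, a log2 fold of -2.34 (SE 0.48, edgeR adjusted p = 0.00322). Efna1 showed no such gap, at 95.8, 84.4 and 55.7 CPM in basal and 129, 84.2 and 96.8 CPM in luminal controls.

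Efna1, Efna3 and Efna4 lie together on chromosome 3 of GRCm38, with gaps of 32.9 kb between Efna1 and Efna3 and 10.5 kb between Efna3 and Efna4, and only the middle gene of the run was called. In the GENCODE annotation, exons of Efna3 share 14.1% of their bases with a gene on the other strand, and those of Efna4 share 10.5%. These exons span 2434 bases for Efna3 and 1599 for Efna4, against deposited gene lengths of 1225 and 1596. The shares therefore need not hold for the exons that were counted. The library kit named in the labels does not keep strand, so reads from such shared bases cannot be told apart.

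Among the Eph receptors, Ephb1, a receptor of the ephrin-B ligands, had the lowest log2 fold of the 49 genes. It had 73.5, 72.4 and 24.8 CPM in basal and 0.936, 1.20 and 0.503 CPM in luminal controls, a log2 fold of -5.99 (SE 0.58, edgeR adjusted p = 2.12e-05). Epha4, which binds ephrins of both classes, had 156, 157 and 119 CPM against 29.4, 42.8 and 32.0 CPM, which was called and without overlap. Ephb6, whose kinase domain is inactive, was the third lower receptor, at 98.5, 117 and 40.0 CPM against 29.8, 32.9 and 22.5 CPM. The other receptors overlapped or did not pass: Ephb4 had 69.0, 81.2 and 57.4 CPM in basal and 55.8, 80.5 and 70.5 CPM in luminal controls, and Ephb3 had 133, 164 and 104 CPM in basal and 171, 80.8 and 260 CPM in luminal controls. Epha2 had 1014, 924 and 689 CPM in basal and 774, 404 and 581 CPM in luminal controls, which overlap.

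The comparison of luminal with basal cells was then made in the knockout-labelled libraries, which share no library with the control comparison. Of the 49 genes, 28 were lower and 3 higher in luminal cells, or 63.3% called, against 40.6% of all tested genes (21.4% lower and 19.2% higher), with a median log2 fold of -1.52 against 0.03. In 36 genes the cell types did not overlap (31 lower and 5 higher), against 54.9% of all tested genes (27.1% lower and 27.8% higher). Markers of other cells were lower in the same luminal libraries: 7 of 8 fibroblast markers (median log2 fold -3.74), 6 of 6 pericyte markers (-4.12) and 6 of 9 endothelial markers (-2.00, with 1 called higher), against medians of -1.05, -2.15 and -0.49 in controls. Fibroblast markers summed to between 1662 and 2181 CPM in basal and between 131 and 281 CPM in luminal knockout-labelled libraries, with no marker of these lists at 0 throughout a group, and their part in the values was not tested. Of the 21 genes called in controls, 20 were called here (95.2%), each in the same direction, and they were 64.5% of the 31 called here. The gene called in controls alone was Plxna3. A call in one list and not in the other does not show a difference between genotypes, which is tested below.

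Ephb1 had 59.9, 53.3 and 51.9 CPM in basal and 0, 0.268 and 0.534 CPM in luminal cells, a log2 fold of -7.49 (SE 0.65, edgeR adjusted p = 1.04e-05) that was -8.49 without luminal knockout-labelled replicate 3, with 8 of the 11 luminal counts. Sema5a had 84.2, 93.7 and 76.3 CPM in basal and 2.19, 5.73 and 6.54 CPM in luminal cells (log2 fold -4.12, SE 0.37, edgeR adjusted p = 1.35e-05). The groups were far apart for both.

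Sema3d had 27.8, 21.6 and 20.5 CPM in basal and 0.598, 0.984 and 1.001 CPM in luminal cells (log2 fold -4.72), and Plxna4 had 5.57, 6.63 and 19.1 against 0.598, 0.537 and 0.734 CPM (-4.03). Sema6d had 115, 171 and 164 against 13.7, 10.4 and 8.47 CPM (-3.79), and Sema3b had 22.1, 65.5 and 23.5 against 3.69, 4.21 and 2.60 CPM (-3.41). None of these 4 genes, which encode secreted or membrane proteins, had RNA values that overlapped between the cell types. Plxnd1 (-3.32) and Sema3c (-3.21) followed, with library values given below. Plxna4 was at -3.27 without basal knockout-labelled replicate 3 and Sema3b at -2.71 without basal knockout-labelled replicate 2. Nrp2 (-2.17, edgeR adjusted p = 0.00870), Efnb1 (-2.03), Efnb2 (-1.88) and Ephb4 (-1.09, edgeR adjusted p = 0.000767) were lower as well, each with all luminal libraries below all basal ones.

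Sema4f, Sema4d and Plxnb2 were higher in luminal knockout-labelled libraries. Sema4f, a transmembrane class 4 semaphorin, had 4.49, 9.13 and 27.6 CPM in luminal and 0.507, 0.537 and 0.760 CPM in basal cells (log2 fold 4.50, SE 1.07, edgeR adjusted p = 0.00618), and its fold was 3.48 without luminal replicate 3, the highest library. Sema4d had 47.5, 50.4 and 73.1 CPM against 14.99, 13.3 and 21.3 CPM (log2 fold 1.79, SE 0.61, edgeR adjusted p = 0.0364), with no overlap. Its call was lost without any single knockout-labelled library and without luminal control 1, with an adjusted p of up to 0.107. Plxnb2, a receptor of class 4 semaphorins, had 312, 403 and 374 CPM against 219, 250 and 176 CPM (log2 fold 0.75, SE 0.19, edgeR adjusted p = 0.00744).

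**Figure D2:**
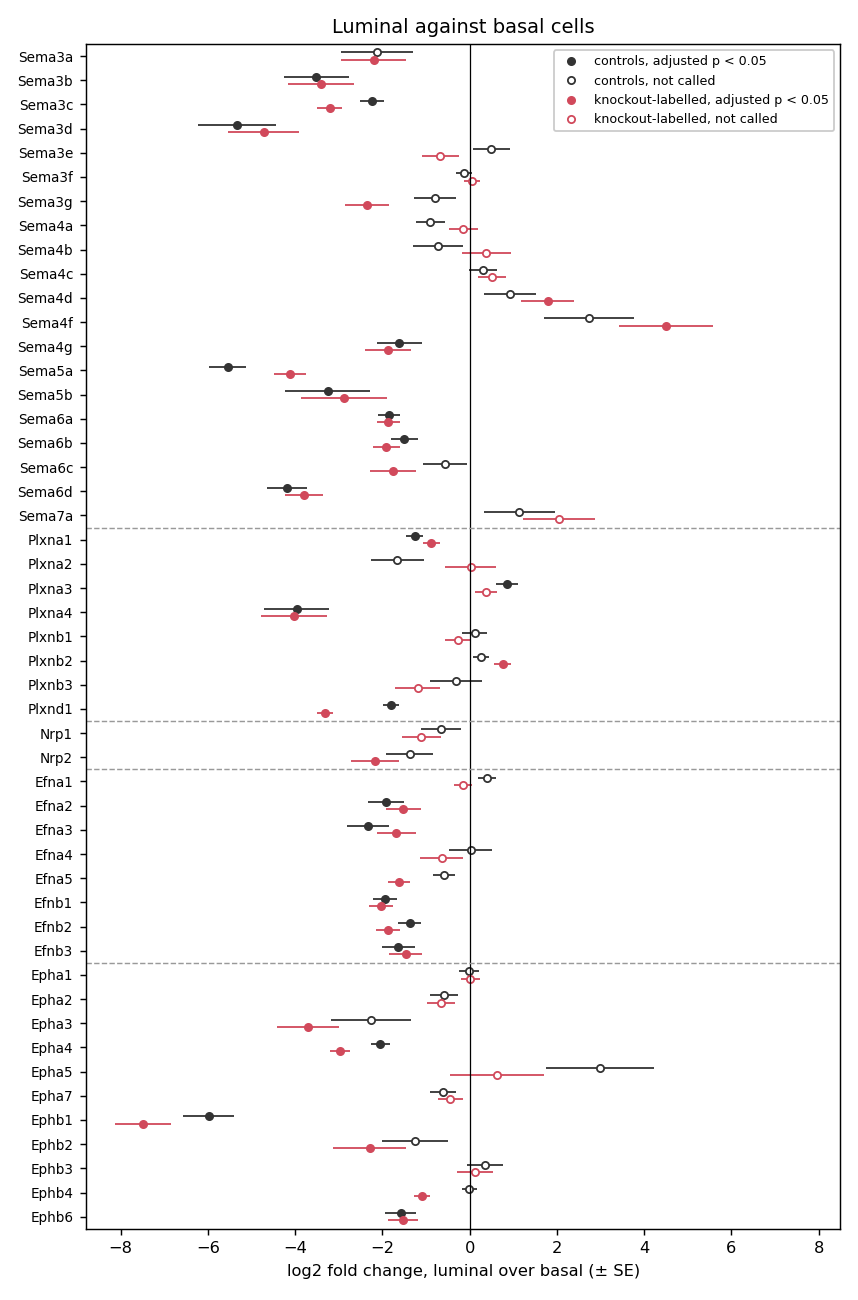
Log2 fold of luminal over basal cells (horizontal axis) for each tested gene (vertical axis), in controls (dark) and in knockout-labelled libraries (red), with bars of 1 SE. Filled points pass an adjusted p under 0.05. Filled points lie mostly left of 0 in both, with Plxna3 the exception in controls and Sema4f, Sema4d and Plxnb2 in knockout-labelled libraries.

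Genes that act with these receptors, 50 in a list of signalling partners of which 47 were tested, were also split between the cell types. In controls 8 were higher and 19 lower in luminal cells, against 33.2% of all tested genes called, and in knockout-labelled libraries 9 were higher and 23 lower, against 40.6%, with median log2 folds of -0.45 in both. Mical2, a flavoprotein of the family that links plexins to actin, had 262, 216 and 253 CPM in basal and 22.4, 12.9 and 20.6 CPM in luminal controls, where the log2 fold was -3.71, edgeR adjusted p = 6.71e-06. Dpysl3, of the collapsin response mediator family, was lower by a log2 fold of -5.20, the integrin subunit Itga1 by -3.96 and the Rac exchange factor Tiam1 by -1.55. In knockout-labelled libraries the sheddase Adam10 was higher in luminal cells (log2 fold 2.34) and Dpysl2 lower (-4.47), each without overlap.

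The knockout-labelled basal libraries were next compared with basal controls. None of the 49 genes was called by edgeR's quasi-likelihood test, against 0.671% of all tested genes (0.611% higher and 0.0604% lower), and 7 had an unadjusted p under 0.05. In 8 genes all knockout-labelled libraries lay above all controls and in 1 all lay below, a share to be read against 12.4% of all tested genes without overlap (8.15% higher and 4.21% lower). DESeq2 called 2 (Epha3 and Plxnd1) and 2.8% of all genes, limma-voom called 1 (Plxnd1) and 0.939% of all genes, and the fit of the basal groups alone called 1 (Epha3) and 1.08% of all genes.

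The gene with the lowest p was Plxnd1, with 39.2, 35.5 and 33.2 CPM in controls and 58.2, 62.6 and 70.4 CPM in knockout-labelled basal libraries. All 3 knockout-labelled values were above all controls, with a log2 fold of 0.83 (SE 0.17), but the edgeR adjusted p was 0.0589. It was 0.0448 without luminal control 3 and up to 0.240 in the other fits that left out 1 library. Sema3c had 149, 162 and 99.1 CPM in controls and 203, 276 and 237 CPM in knockout-labelled libraries, again without overlap (log2 fold 0.80, SE 0.26, edgeR adjusted p = 0.249). Efna1 had 95.8, 84.4 and 55.7 CPM against 117, 111 and 136 CPM (log2 fold 0.62, SE 0.21, edgeR adjusted p = 0.292). Nrp1 had 5.70, 6.25 and 11.5 CPM against 16.9, 15.9 and 15.2 CPM (log2 fold 1.03, SE 0.45, edgeR adjusted p = 0.503).

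Epha3, a low member outside the rule for named genes and chosen here after its values were seen, had 4, 8 and 4 counts in basal controls and 38, 22 and 37 in knockout-labelled basal libraries (log2 fold 2.68, SE 0.66, edgeR adjusted p = 0.115). Both groups stood clear of each other. Of the partner list 0 of 47 were called, and the 2 with the lowest p were Dpysl2 (log2 fold 1.28, edgeR adjusted p = 0.137) and Rnd1 (log2 fold 0.80, edgeR adjusted p = 0.154), a small GTPase that binds plexins. Both passed with DESeq2 (Dpysl2 adjusted p = 0.0240, Rnd1 0.0366).

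Markers of other cells moved with these values. The summed CPM of 8 fibroblast markers was between 576 and 981 in basal controls and between 1662 and 2181 in knockout-labelled basal libraries, with 2 of 8 called higher, 7 of 8 without overlap and none at 0 throughout a group. The marker with overlap was Fbln2, whose mean was lower in knockout-labelled libraries. It had 517, 617 and 140 CPM in controls and 258, 320 and 321 CPM in knockout-labelled libraries. The 6 pericyte markers summed to between 36.2 and 53.0 CPM in controls and between 57.8 and 137.5 CPM in knockout-labelled libraries, with 0 called. Of 4 Schwann cell markers 3 were tested and 1 was called higher, at a sum between 34.9 and 96.2 CPM in controls and between 79.6 and 115 CPM in knockout-labelled libraries. Most of this sum was Mbp, at 44.8, 28.4 and 90.6 CPM in controls and 67.1, 41.9 and 98.4 CPM in knockout-labelled libraries, which overlap. No macrophage marker (3 of 6 tested) or lymphocyte marker (1 of 6 tested) was called, and no adipocyte marker (0 of 4) was high enough to test. The part of these cells in the values of Plxnd1, Sema3c, Nrp1 and Epha3 was not tested.

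Of the members followed in every comparison, the others overlapped in basal cells between genotypes, apart from Plxnb1. Plxnb1 had 163, 166 and 111 CPM in knockout-labelled libraries, below all 3 controls, and was not called. Sema4d and Sema7a had knockout-labelled values of 14.99, 13.3 and 21.3 CPM and of 14.1, 8.15 and 24.1 CPM, inside the wide control ranges set by replicate 3. Nrp2 (20.6, 21.1 and 15.8 CPM), Plxnb2 (219, 250 and 176 CPM), Efnb1 (232, 142 and 274 CPM), Efnb2 (278, 205 and 313 CPM), Epha2 (1294, 632 and 1233 CPM) and Ephb3 (162, 117 and 231 CPM) spread over the control values.

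In luminal cells 3 of the 49 genes were called between genotypes, or 6.12% against 3.03% of all tested genes (2.21% higher and 0.819% lower). Sema5a was higher, and Ephb4 and Efna5 were lower in knockout-labelled libraries. In 14 genes the groups did not overlap, 5 with all knockout-labelled libraries higher and 9 lower, against 25.4% of all tested genes without overlap (13.1% higher and 12.3% lower). With replicate number as a block, which treats same-numbered libraries as pairs, 8 genes were called (3 higher and 5 lower), against 7.36% of all tested genes under the same fit. The count was 5 without basal control 3 and 6 without luminal control 3, where 4.69% and 3.85% of all genes were called. It was 0 without luminal control 2, luminal knockout-labelled replicate 2 or luminal knockout-labelled replicate 3, where 0.828%, 0.929% and 1.1% of all genes were called. The count was 2 without luminal control 1 or without luminal knockout-labelled replicate 1, where 0.843% and 2.46% were called. In the fits that gave 0 or 2 the share over all genes was also below 3.03%, though not in step with the count.

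Sema5a had 1.22, 0.74 and 1.41 CPM in luminal controls and 2.19, 5.73 and 6.54 CPM in knockout-labelled luminal libraries, or 13, 8 and 14 against 22, 64 and 98 counts. All knockout-labelled values were above all controls, with a log2 fold of 2.11 (SE 0.40, edgeR adjusted p = 0.0189), yet they remained far below the basal level. The call was lost without luminal control 1 (0.0707), luminal control 2 (0.0911), knockout-labelled replicate 2 (0.0687) or replicate 3 (0.0749), and with limma-voom (0.0805). The 6 basal markers summed to 129, 116 and 667 CPM in luminal controls. In knockout-labelled luminal libraries they summed to 304, 728 and 611 CPM, against 13999.7 to 19145 CPM in basal libraries. Trp63 was the 1 of 6 called higher, and none was at 0 throughout a group. The markers did not move together, and their median log2 fold between the luminal genotypes was -0.0964. From luminal controls to knockout-labelled luminal libraries, mean CPM rose for Krt14 (124.9 to 329.2), Krt5 (119.2 to 138.9) and Trp63 (7.56 to 52.58). It fell for Oxtr (21.97 to 4.90), Acta2 (18.38 to 13.78) and Myh11 (11.97 to 8.19). The part of basal RNA in the Sema5a values was not tested.

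Ephb4 had 55.8, 80.5 and 70.5 CPM in luminal controls and 36.7, 37.0 and 34.0 CPM in knockout-labelled luminal libraries. The 3 knockout-labelled values lay close together and below all controls, with a log2 fold of -0.94 (SE 0.18, edgeR adjusted p = 0.0193). The call was lost without luminal control 2 (0.0879) or without knockout-labelled replicate 1 (0.0528), 2 (0.0742) or 3 (0.0841). Efna5, a GPI-anchored ephrin, had 39.0, 48.9 and 31.4 CPM against 22.5, 12.3 and 16.1 CPM, also without overlap (log2 fold -1.23, SE 0.25, edgeR adjusted p = 0.0241). Its call was lost without luminal control 1 (0.0723), luminal control 2 (0.105), knockout-labelled replicate 2 (0.1001) or replicate 3 (0.0980).

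Sema4a, a class 4 semaphorin known from immune cells, was just outside the threshold. It had 60.9, 23.9 and 34.8 CPM in luminal controls and 98.0, 109 and 95.9 CPM in knockout-labelled libraries, all above the controls, with a log2 fold of 1.34 (SE 0.33, edgeR adjusted p = 0.0542). The adjusted p was 0.0185 with the replicate block, and 0.0330 without basal control 3 or without luminal control 1. Plxnd1 had 8.05, 10.8 and 12.2 CPM against 6.18, 6.44 and 6.54 CPM, a log2 fold of -0.69 (SE 0.18, edgeR adjusted p = 0.0663) and 0.0391 with the block. The block also called Plxna2 (log2 fold 2.13, edgeR adjusted p = 0.00901), Ephb2 (-2.66, edgeR adjusted p = 0.0217) and Sema6c (-1.33, edgeR adjusted p = 0.0328).

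Plxna2 and Ephb2 followed the libraries numbered 3. Plxna2, a receptor of class 6 semaphorins, had 4.87, 4.62 and 19.0 CPM in luminal controls and 26.7, 23.9 and 65.0 CPM in knockout-labelled libraries, with replicate 3 the highest in each group, and its unblocked log2 fold was 2.03 (edgeR adjusted p = 0.106) and 3.04 without luminal control 3 (edgeR adjusted p = 0.0242). Ephb2 had 2.62, 10.3 and 21.0 CPM against 0.898, 1.25 and 2.67 CPM, which overlap (log2 fold -2.77, edgeR adjusted p = 0.104, and 0.0442 without basal control 3).

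**Figure D3:**
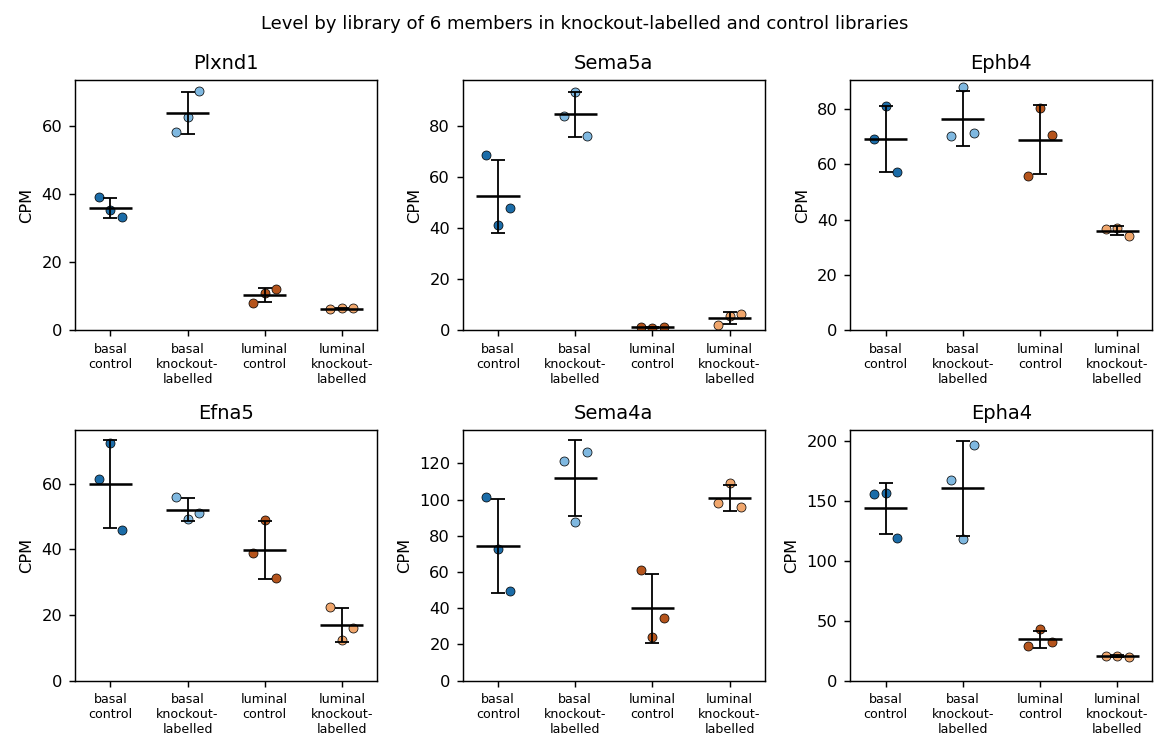
CPM of Plxnd1, Sema5a, Ephb4, Efna5, Sema4a and Epha4 (vertical axes) in the 4 groups (horizontal axes). Each point is a library, lines are means and bars are SDs over 3 libraries. The luminal knockout-labelled points lie above the luminal controls for Sema5a and Sema4a and below them for the other 4 genes, and the basal knockout-labelled points of Plxnd1 lie above the basal controls.

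The summed level of 9 endothelial markers was lower in the same luminal libraries, without any marker passing the test. The sums were 101, 107 and 177 CPM in luminal controls and 71.1, 80.3 and 88.6 CPM in knockout-labelled luminal libraries. The median log2 fold was -1.24, with 0 of 9 called, 0 of 9 without overlap and none at 0 throughout a group. Vwf was the highest of them, at 77.3, 49.3 and 64.4 CPM in controls. It had 54.5, 55.3 and 54.1 CPM in knockout-labelled libraries, which overlap the controls. Plxnd1 and Ephb4 are known for roles in vessels, and the part of endothelial cells in their luminal values was not tested. In basal libraries the same markers summed to between 70.8 and 169 CPM in controls and between 102 and 119 CPM in knockout-labelled libraries.

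Vav3 and Dpysl5 were the 2 of 47 tested partner genes that changed in luminal cells, a share near the 3.03% of all tested genes. Vav3, a signalling protein that acts downstream of Eph receptors, had 15.5, 17.0 and 24.7 CPM in controls and 75.7, 96.3 and 46.9 CPM in knockout-labelled libraries, a log2 fold of 1.93 (SE 0.31, edgeR adjusted p = 0.00903), with 0.0511 without luminal control 1. Dpysl5, of the collapsin response mediator family, had 18.1, 10.1 and 9.25 CPM against 3.49, 3.76 and 3.40 CPM (log2 fold -1.81, SE 0.35, edgeR adjusted p = 0.0193). Its call was lost without luminal control 1 (0.0820) or knockout-labelled replicate 1 (0.0578), 2 (0.0753) or 3 (0.0822), and with the luminal groups alone (0.0513).

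The remaining members followed in every comparison were not called in luminal cells. Sema7a had 35.1, 28.4 and 127 CPM in knockout-labelled libraries, a range set by replicate 3, and Sema4d had 47.5, 50.4 and 73.1 CPM, overlapping the controls. Nrp1 was at 13.7 CPM in replicate 2 and at 4.29 and 4.34 CPM in the others, and Nrp2 was at 3.39, 5.82 and 3.54 CPM. Sema3c (24.6, 21.7 and 31.1 CPM), Plxnb1 (122, 121 and 124 CPM), Plxnb2 (312, 403 and 374 CPM), Efna1 (108, 108 and 110 CPM) and Efnb1 (53.1, 47.1 and 59.2 CPM) overlapped the controls. Efnb2 (72.8, 63.9 and 80.1 CPM) lay below all controls, and Epha2 (763, 522 and 704 CPM) and Ephb3 (156, 127 and 270 CPM) overlapped them.

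The difference between the effects in luminal and basal cells was tested as an interaction. Among the 49 genes 1 was called, Plxnd1, against 0.275% of all tested genes (0.181% with a lower and 0.0939% with a higher luminal effect), and 7 had an unadjusted p under 0.05. Its knockout-labelled libraries were above all controls in basal cells (mean 63.7 ± 6.2 CPM against 35.9 ± 3.05, SD, n = 3) and below all controls in luminal cells (6.39 ± 0.18 against 10.3 ± 2.10 CPM). The difference of the log2 folds, luminal minus basal, was -1.52 (SE 0.25, edgeR adjusted p = 0.0371). The call was lost in 9 of 12 fits that left out 1 library, with differences between -1.65 and -1.35 and adjusted p-values up to 0.101. It remained without luminal control 1, luminal control 3 or basal control 3. The comparison of cell types restates this: the log2 fold of luminal over basal cells for Plxnd1 was -1.80 in controls and -3.32 in knockout-labelled libraries.

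The genes next in order did not pass. For Ephb4 the difference was -1.08 (SE 0.26, edgeR adjusted p = 0.104, and 0.0442 with the replicate block), where the basal groups overlapped at 69.0, 81.2 and 57.4 against 70.1, 87.9 and 71.5 CPM. It passed with DESeq2 (adjusted p = 0.0083). For Epha4, which had 167, 118 and 197 CPM in basal knockout-labelled libraries around the control values of 156, 157 and 119 CPM, and 20.8, 20.9 and 19.4 CPM in luminal knockout-labelled libraries against 29.4, 42.8 and 32.0 CPM in controls, it was -0.93 (SE 0.30, edgeR adjusted p = 0.267). For Efna5, with basal values of 61.4, 72.4 and 45.8 CPM in controls and 56.0, 49.4 and 50.9 CPM in knockout-labelled libraries, it was -1.03 (SE 0.35, edgeR adjusted p = 0.302). Of the partner list 0 were called and Dpysl2 (-2.22, edgeR adjusted p = 0.101) and Rnd1 (-1.16, edgeR adjusted p = 0.159) had the lowest p. The Dpysl2 difference passed with DESeq2 (adjusted p = 0.0123) and with the replicate block (0.0333), and that of Rnd1 passed with DESeq2 (0.0406). The blocked values of Ephb4 and Dpysl2 also pair the basal genotypes, whose same-numbered libraries correlated at only -0.087, 0.36 and 0.13.

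**Figure D4:**
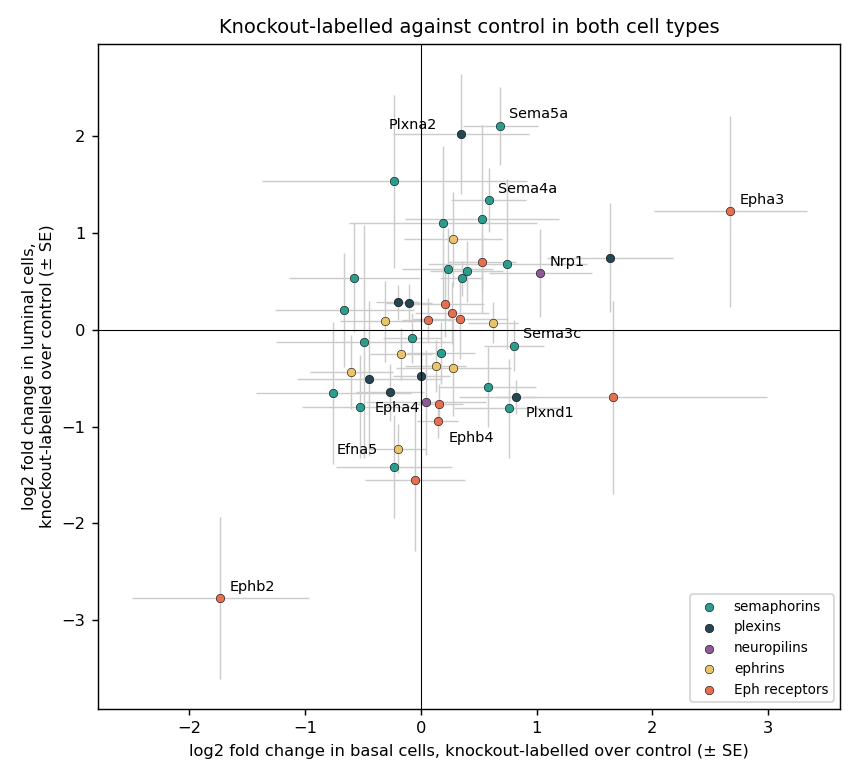
Log2 fold of knockout-labelled over control libraries in basal cells (horizontal axis) and in luminal cells (vertical axis) for the 49 tested genes, with bars of 1 SE and a colour for each family. Plxnd1 lies right of 0 and below 0, and of the genes called in luminal cells Sema5a lies above 0 and Ephb4 and Efna5 lie below 0 on the vertical axis.

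The spread among the controls bears on all of these comparisons. In basal control 3, Ephb2, Sema3d, Sema3e, Sema4b, Sema4d and Sema7a were at least 2-fold above both other basal controls, and Efna3, Ephb1, Ephb6, Sema3a, Sema3b, Sema4g, Sema6c and Sema6d were at least 2-fold below both. These are 12.2% and 16.3% of the 49 genes, against 6.86% and 8.23% of all tested genes. Sema4b shows the size of the gap, with 22.3 and 17.5 CPM in basal controls 1 and 2 and 98.7 CPM in basal control 3. The same library had lower contractile markers, with Acta2 at 1242 CPM against 4845 and 5180 CPM in basal controls 1 and 2, and higher Krt5 at 7270 against 2387 and 2574 CPM. In luminal control 3, Ephb2, Nrp2, Plxna2, Sema3d and Sema4f were at least 2-fold above both other luminal controls and Efna2 was below both.

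**Figure D5:**
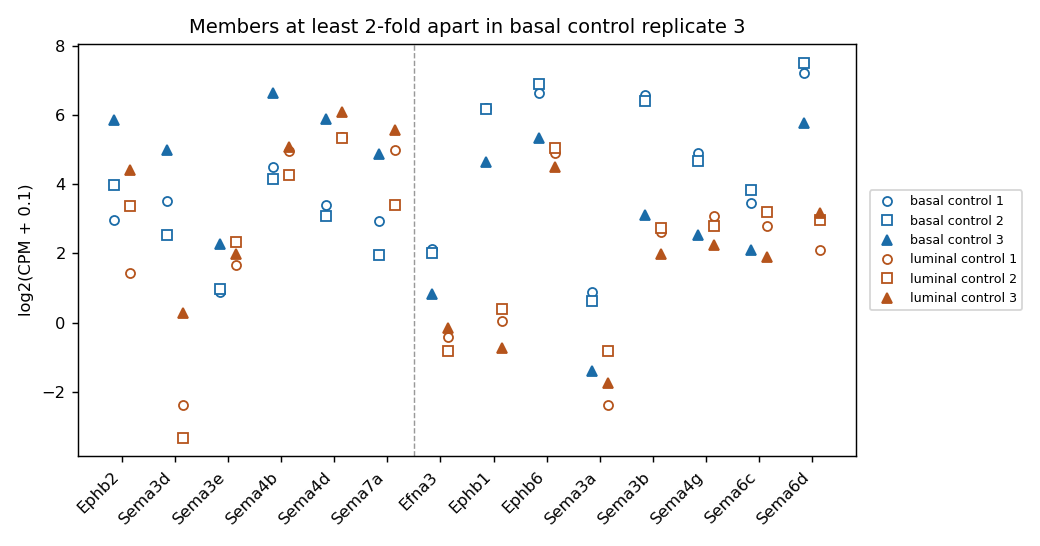
Level as log2(CPM + 0.1) (vertical axis) in the 6 control libraries for the 14 genes that were at least 2-fold above (left of the dashed line) or below (right of it) both other basal controls in basal control 3. Filled triangles are the control libraries numbered 3. Of the 6 genes on the left the luminal triangle is also the highest luminal control for 5, with Sema3e the exception.

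Leaving out both control libraries numbered 3, a choice made after the data were seen, gave 24 called genes between luminal and basal controls (22 lower and 2 higher) in place of 21, with 20 shared, against 31.6% of all tested genes under the same choice. Between genotypes in luminal cells it gave 8 in place of 3, with Sema5a, Ephb4 and Efna5 among them, against 7.21% of all tested genes. In basal cells it gave 0, against 1.76% of all genes, and for the difference of effects it left Plxnd1 called (-1.35, edgeR adjusted p = 0.0423), against 0.796%.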

How the data were processed

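RNA was sequenced from basal and luminal mammary cells in 12 libraries, 3 per group, with an unstranded TruSeq v2 kit per the labels. The deposited values are raw read counts per gene, with gene lengths beside them, and per the submitters' processing notes CASAVA 1.8.2, featureCounts and mm10 were used. Which aligner and which annotation were used is not given in the sources used here. Per-library tables as deposited differed from the series table in 0 values.

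Counts were tested with edgeR 4.0.16 (R 4.3.3): TMM scaling, its expression filter, which kept 14903 genes and at least 99.8% of each library's counts, 4 group means in 1 fit with 8 residual degrees of freedom, the quasi-likelihood test and Benjamini-Hochberg adjustment over all tested genes, called under 0.05. CPM and RPKM were computed from the counts and are levels, not test input. DESeq2 1.42.0 and limma-voom (limma 3.58.1) were alternatives, with other scaling, other filters, each library left out, the compared groups alone and the replicate number as a block. The steps were tested on simulated data.

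The labels number replicates within groups, and their descriptions give same-numbered libraries the same letter (A, B or C) in every group. The letters alone do not show what those libraries share. Deviations of same-numbered libraries correlated at 0.36, 0.30 and 0.53 between the luminal genotypes. Between the cell types in controls they correlated at 0.31, 0.42 and 0.47. The replicate numbers were therefore treated as pairing those libraries, which the correlations do not prove. The blocked value is given beside the unblocked one for some, not all, of the calls that it changed. Between cell types in knockout-labelled libraries the block also called Sema7a (log2 fold 1.86, edgeR adjusted p = 0.000962). There it called Nrp1 (-1.20, edgeR adjusted p = 0.0449) and Epha2 (-0.63, edgeR adjusted p = 0.0470) as well. In basal cells the correlations were -0.087, 0.36 and 0.13, and between cell types in knockout-labelled libraries 0.087, 0.42 and 0.42. These do not meet the same bar. The block fits the replicate number over all 12 libraries together, so every blocked value also draws on these pairs.

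Genes named with values were the called members, or those with the lowest p up to 4, with an average log2 CPM of at least 1; the 8 with the largest folds per direction between cell types; and 14 followed throughout. Members and lists were chosen with earlier results of these data known. Promoters are from RefSeq (GRCm38.p6).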

Additional observations from a re-analysis of the deposited data

Results flagged for a closer look

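The effect of the knockout label on Plxnd1 was called as differing between cell types, but the call was not stable. It was lost in 9 of 12 fits that left out 1 library. With limma-voom (adjusted p = 0.0678) and with library size alone (edgeR adjusted p = 0.0582) it was also lost. Neither of the 2 folds below passed the threshold by itself in edgeR's unblocked fit on all 12 libraries. Both passed with the replicate block (edgeR adjusted p = 0.0387 in basal and 0.0391 in luminal cells). They also passed with DESeq2 (adjusted p = 0.000497 and 0.0248), and the basal fold passed without luminal control 3 (edgeR adjusted p = 0.0448). The log2 fold of knockout-labelled over control libraries was 0.83 in basal cells and -0.69 in luminal cells, and the difference, luminal minus basal, was -1.52 (SE 0.25, edgeR adjusted p = 0.0371). It was singled out because the test of the difference itself passed the threshold, with all 3 basal knockout-labelled libraries above and all 3 luminal ones below their controls. The summed levels of fibroblast and pericyte markers in basal libraries and of endothelial markers in luminal libraries moved the same way. No endothelial marker was free of overlap on its own in luminal libraries, and the part of these cells was not tested.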

How the results depend on the processing

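Numbers of called members were as follows under the alternatives that moved them by over 1.5 times; the cause was not tested. In basal cells 0 were called, against 2 with DESeq2, 1 with limma-voom, 1 with the basal groups alone, 1 with the replicate block (Plxnd1, edgeR adjusted p = 0.0387) and 0 to 1 with 1 library left out. Of the partner genes Dpysl2 also passed with the block (edgeR adjusted p = 0.0289). The shares of all tested genes were 0.671%, against 2.8% with DESeq2, 0.939% with limma-voom and 1.08% with the basal groups alone. They were 1.58% with the block and 0.111% to 0.928% with 1 library left out. In luminal cells 3 were called, against 8 with DESeq2, 8 with the replicate block, 0 with the luminal groups alone, 8 without both control libraries numbered 3, and 0 to 6 with 1 library left out. In the same order the shares of all tested genes were 3.03%, against 7.31%, 7.36%, 1.45%, 7.21% and 0.828% to 4.69%. For the difference of effects 1 was called, against 0 with library size alone, 2 with DESeq2, 0 with limma-voom, 2 with the replicate block (Plxnd1 and Ephb4) and 0 to 1 with 1 library left out. In that order the shares of all tested genes were 0.275%, against 0.235%, 2.38%, 0.148%, 0.711% and 0.0654% to 0.562%. Between cell types the number was 21 in controls (18 to 28 over all alternatives, 28 with the block) and 31 in knockout-labelled libraries (27 to 34, 34 with the block). The shares of all tested genes were 33.2% in controls (21.6% to 43.8%, 43.8% with the block). In knockout-labelled libraries they were 40.6% (28% to 51.2%, 51.2% with the block). The blocked counts for basal cells, for the difference and between cell types in knockout-labelled libraries use number pairs that did not meet the bar given above. Of the 65 single values recomputed, settings gave 1257 values on the same side of the threshold, 45 that lost it, 55 that gained it and 0 with the opposite direction. Library size alone moved the median log2 fold of all genes between cell types in knockout-labelled libraries from 0.03 to 0.15. With 3 libraries a group and luminal control counts of 0 to 14 for Sema3d, Sema5a and Ephb1, folds of those genes are imprecise.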
